A study of Mus musculus with 19 samples.

Results

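The thrombospondin family in mouse plantaris tendon comprised the 5 genes Thbs1, Thbs2, Thbs3, Thbs4 and Comp, taken by name from a table of 24972 genes. All 5 were above the low-value limit and were among the 16619 genes tested. The 19 libraries, made from total RNA of whole plantaris tendon, fell into 5 groups. The 3 control libraries came from Scx+ mice that had received neither tamoxifen nor a growth stimulus. The other 16 came from tamoxifen-treated mice under the growth stimulus, 4 each from Scx+ mice at day 7, Scx- mice at day 7, Scx+ mice at day 14 and Scx- mice at day 14. The title of the study describes Scx- as a targeted deletion of scleraxis (Scx), a transcription factor of tendon cells. The alleles, the driver of the deletion, the kind of stimulus, the strain, sex and age are not given in the sources used here, nor whether replicates were separate animals, so each p-value measures the spread between libraries only. Stimulus and tamoxifen cannot be told apart in any comparison with the controls, and for Scx- mice neither can genotype, because no unstimulated Scx- mice were among the libraries.

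Thrombospondins are secreted glycoproteins of the extracellular matrix that bind calcium, matrix proteins and cell-surface receptors. Thrombospondin-1 and thrombospondin-2, encoded by Thbs1 and Thbs2, assemble as trimers and are known as inhibitors of vessel growth, and thrombospondin-1 can activate latent TGF-beta. The products of Thbs3, Thbs4 and Comp assemble as pentamers. The last, cartilage oligomeric matrix protein (COMP) binds collagen fibrils and is abundant in tendon and cartilage, and thrombospondin-4 is a matrix protein of tendon and of its junction with muscle. Scleraxis belongs to the basic helix-loop-helix factors, which bind the E-box, a short DNA motif written CANNTG.

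Values are the deposited scaled signal after rescaling between libraries by medians of ratios, in kU (1 kU is 1000 units of that signal), and the number of reads behind them is unknown. They are not per length, so levels of different genes are compared only where a value per kilobase is given. Tests are on log2(value + 2) with limma across all 16619 genes, with Benjamini-Hochberg adjustment and a threshold of 0.05. Scx itself, which checks the labels, lay at 2082 to 7993 units in the 8 stimulated Scx+ libraries, at 317 to 589 in the controls and at 1.65 to 17.1 in the 8 Scx- libraries. Skeletal muscle marker genes took 19.5% to 23.0% of the signal in the controls. They took 0.0272% to 1.69% in Scx+ day 7, 0.309% to 4.99% in Scx- day 7 and 0.213% to 7.06% in Scx+ day 14. In Scx- day 14 replicates 1 and 2 stood apart at 13.2% and 15.5%, while replicates 3 and 4 lay at 3.58% and 3.59%.

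Thbs3, Thbs4 and Thbs2 had an entry in the RefSeq promoter table, 3 of the 5 genes. Their 250 bases before the RefSeq transcription start (GRCm38.p6) are written 5′ to 3′ on the gene's own strand. They are shown because scleraxis is an E-box binding factor, and binding was not tested. All 3 genes were higher than control in Scx- mice as well as in Scx+ mice. Capitals mark each E-box match. The windows are chr3:89214930-89215179 on the plus strand for Thbs3, chr13:92794819-92795068 on the minus strand for Thbs4 and chr17:14694263-14694512 on the minus strand for Thbs2.
Thbs3: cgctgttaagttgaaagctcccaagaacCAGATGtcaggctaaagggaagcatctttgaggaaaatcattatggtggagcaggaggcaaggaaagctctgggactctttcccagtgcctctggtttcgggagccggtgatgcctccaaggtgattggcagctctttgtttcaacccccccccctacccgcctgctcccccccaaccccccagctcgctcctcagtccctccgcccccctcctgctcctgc
Thbs4: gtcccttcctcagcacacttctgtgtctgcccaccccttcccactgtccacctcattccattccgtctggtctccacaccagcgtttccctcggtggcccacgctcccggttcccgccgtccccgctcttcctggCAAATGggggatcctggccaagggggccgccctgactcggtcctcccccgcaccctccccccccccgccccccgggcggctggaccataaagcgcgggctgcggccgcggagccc
Thbs2: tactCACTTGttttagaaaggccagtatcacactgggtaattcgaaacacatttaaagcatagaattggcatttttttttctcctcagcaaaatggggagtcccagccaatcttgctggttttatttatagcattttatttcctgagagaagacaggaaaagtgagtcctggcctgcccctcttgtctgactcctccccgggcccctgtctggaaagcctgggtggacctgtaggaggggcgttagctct
Each window held 1 match to CANNTG. In Thbs3 it read CAGATG and began 222 bases upstream of the start. In Thbs4 it read CAAATG at 115 bases, and in Thbs2 CACTTG at 246 bases. CANNTG reads CANNTG on the opposite strand too, so 1 search covered both strands. Of 32851 promoter windows of that length, 66.2% held the motif. The narrower forms CATCTG or CAGATG, which are the same site on opposite strands, occurred in 14.4% of windows, and CAGCTG, which none of the 3 windows held, occurred in 13.0%. The Thbs4 window had a GC content of 70.8%, at percentile 92.2 of all windows, against 58.8% for Thbs3 and 46.8% for Thbs2. A match describes letters only.

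Thbs1, Thbs2, Thbs3 and Thbs4 were higher in all 4 stimulated groups than in the controls, by 2.70-fold for Thbs3 to 29.6-fold for Thbs2 in Scx+ mice at day 7, where between 25.5% and 33.8% of all genes were called higher in the 4 comparisons. Comp did not pass the test in any of them. Between genotypes, Thbs4 was 3.84-fold lower in Scx- than in Scx+ mice at day 14, the only call among the 5 genes, where 0.409% of all genes were called lower. Thbs1 and Thbs4 were lower in every Scx- library than in every Scx+ library at both days, and Thbs2 at day 14. Over all genes 4.18% were lower without overlap at day 7 and 2.94% at day 14. Thbs1 and Thbs2 did not pass the test at either day. Thbs3 and Comp overlapped between genotypes at both days. In the 5-panel plot of levels by library the 3 controls lie below nearly all stimulated libraries for Thbs1 to Thbs4 and among them for Comp.

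**Figure D1:**
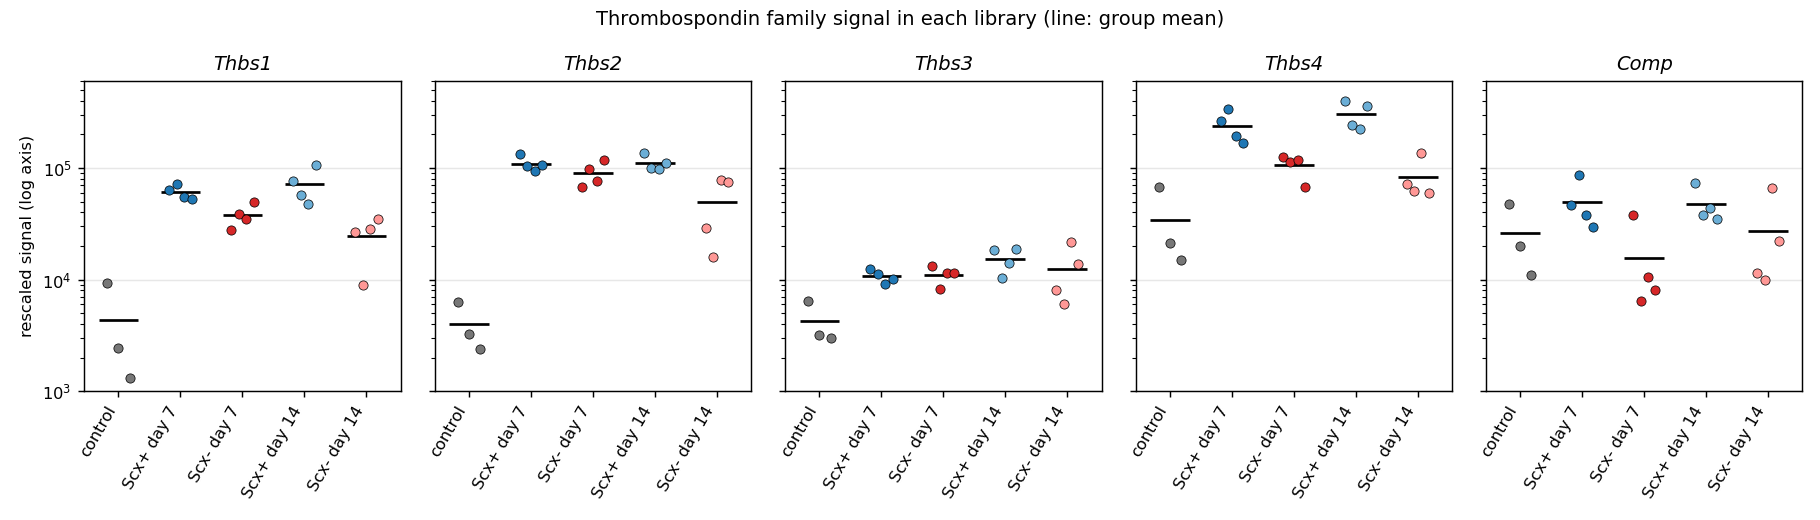
Rescaled signal of Thbs1, Thbs2, Thbs3, Thbs4 and Comp in each of the 19 libraries (points) by group, on a log axis, with the group mean as a horizontal line. Thbs4 reaches 401 kU in a Scx+ day 14 library and lies between 59.2 and 137 kU in Scx- day 14, while the Comp points of stimulated and control groups overlap.

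Thbs1 (chr2:118111876-118127133, plus strand, GRCm38, 22 exons in its longest annotated transcript) encodes the trimeric thrombospondin-1. The controls read 9.31, 2.41 and 1.32 kU. At day 7 the Scx+ libraries read 63.6, 71.9, 55.3 and 52.7 kU and the Scx- libraries 27.9, 38.9, 35.0 and 49.9 kU. At day 14 the Scx+ libraries read 76.7, 57.6, 47.6 and 105 kU and the Scx- libraries 26.7, 9.0, 28.5 and 34.8 kU. Every Scx- library was below every Scx+ library of its day, and Scx- day 14 replicate 2 fell just under the highest control. Group means were 4.35 ± 4.33 kU (SD, n = 3) in controls, 60.9 ± 8.67 and 37.9 ± 9.15 kU (SD, n = 4 each) in Scx+ and Scx- at day 7, and 71.8 ± 25.4 and 24.8 ± 11.1 kU (SD, n = 4 each) at day 14. An antisense long noncoding RNA, Gm29233, shares 208 exon bases with Thbs1, and the strand of the libraries is not stated, so reads in those bases cannot be assigned.

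Thbs2 (chr17:14665500-14694235, minus strand, 22 exons) encodes thrombospondin-2, the other trimer. The controls read 6.32, 3.26 and 2.38 kU. At day 7 the Scx+ libraries read 134, 104, 93.2 and 106 kU and the Scx- libraries 67.2, 97.5, 76.7 and 117 kU, so the genotypes overlapped. The day 14 values were 136, 100.1, 98.6 and 110.0 kU in Scx+ and 29.1, 16.1, 77.5 and 74.4 kU in Scx-. Here the genotypes did not overlap, and within Scx- the lowest libraries were replicates 1 and 2, those with the most muscle marker signal. The means were 3.99 ± 2.07 kU in controls (SD, n = 3), 109 ± 17.4 and 89.5 ± 22.1 kU at day 7, and 111 ± 17.4 and 49.3 ± 31.3 kU at day 14 (Scx+ and Scx-, SD, n = 4 each).

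Thbs3 (chr3:89215180-89226837, plus strand, 21 exons) encodes a pentameric member. Its controls read 6.42, 3.20 and 3.0 kU. At day 7 the Scx+ libraries read 12.5, 11.2, 9.09 and 10.1 kU and the Scx- libraries 13.1, 8.23, 11.5 and 11.4 kU. Day 14 gave 18.4, 10.2, 14.0 and 18.7 kU in Scx+ and 8.14, 6.08, 21.9 and 13.7 kU in Scx-. The genotypes overlapped at both days, and Scx- day 14 held both the lowest and the highest stimulated library. Thbs3 shares 318 exon bases with Mtx1, a mitochondrial import gene on the other strand. Mtx1 differed by 0.02 ± 0.14 (SE) log2 units between genotypes at day 7, by 0.06 ± 0.14 at day 14 and by 0.10 ± 0.16 between Scx+ day 7 and control.

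Thbs4 (chr13:92751590-92794818, minus strand, 22 exons) encodes thrombospondin-4. The controls read 67.2, 21.4 and 14.9 kU. At day 7 the Scx+ libraries read 264, 336, 192 and 166 kU and the Scx- libraries 126, 113, 118 and 67.0 kU. At day 14 the Scx+ libraries read 401, 244, 224 and 358 kU and the Scx- libraries 71.0, 62.4, 137 and 59.2 kU. All Scx- libraries were below all Scx+ libraries at both days. The highest control, replicate 1, lay above 1 Scx- library of day 7 and above 2 of day 14. Means were 34.5 ± 28.5 kU in controls (SD, n = 3), 239.6 ± 76.6 and 106 ± 26.5 kU at day 7, and 307 ± 86.2 and 82.4 ± 36.7 kU at day 14 (Scx+ and Scx-, SD, n = 4 each).

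Comp (chr8:70373558-70382066, plus strand, 19 exons) encodes COMP. The controls read 47.4, 19.8 and 11.1 kU. At day 7 the Scx+ libraries read 46.6, 85.7, 37.8 and 29.7 kU and the Scx- libraries 37.7, 6.38, 10.6 and 8.11 kU. At day 14 the Scx+ libraries read 73.0, 37.8, 43.9 and 34.5 kU and the Scx- libraries 11.4, 9.90, 65.8 and 22.1 kU. In each Scx- group 1 library lay within the Scx+ range, replicate 1 at day 7 and replicate 3 at day 14, and the other 3 lay below it. Comp varied most among libraries of one group: its residual SD was 0.96 log2 units, at percentile 82.0 of all tested genes, against 0.51 at percentile 61.1 for Thbs3, the least variable member.

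The controls themselves differed. Control replicate 1 was the highest control for all 5 members, and its tendon marker genes took 0.254% of the signal, against 0.0883% and 0.0596% in replicates 2 and 3. Its family total, the 5 members together, was 0.218% of the signal, against 0.0682% and 0.0479%. The part of tendon marker content in the control spread was not tested. In tissue RNA of this kind, fewer cells of a type and less RNA per cell cannot be told apart.

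The comparisons with control asked how the family differed between stimulated and unstimulated tendon. In Scx+ mice at day 7, Thbs2 was higher by 4.89 ± 0.44 log2 units (SE, adjusted p = 1.73e-07, limma), Thbs1 by 4.28 ± 0.52 (adjusted p = 3.48e-06), Thbs4 by 3.05 ± 0.44 (adjusted p = 1.55e-05) and Thbs3 by 1.43 ± 0.36 (adjusted p = 0.00229). These 4 of 5 members passed, where 33.8% of all tested genes were called higher, and all 4 lay above every control library, as 33.4% of all genes did. The Comp difference was 1.08 ± 0.67 with a 95% interval of -0.34 to 2.50 (adjusted p = 0.175). With library totals as the scale Comp also passed at day 7 (1.75, adjusted p = 0.0356) and day 14 (1.66, adjusted p = 0.0487), a scale that moved the median of all genes from 0.18 to 0.83 and the share of higher genes among all calls from 55.1% to 78.6% at day 7. With the muscle marker level as a covariate Thbs3 no longer passed at day 7 (0.77, adjusted p = 0.207).

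The same 4 members were called higher in Scx+ mice at day 14, against 30.9% of all genes, and lay above every control library, as 26.9% of all genes did. Thbs2 was 4.91 ± 0.44 log2 units higher than control, Thbs1 4.47 ± 0.52, Thbs4 3.42 ± 0.44 and Thbs3 1.91 ± 0.36, with adjusted p between 2.76e-07 and 0.000264 (limma). Comp was at 1.05 ± 0.67, with an interval of -0.37 to 2.47. In Scx- mice the 4 were also called higher, against 32.3% of genes at day 7 and 25.5% at day 14. At day 7 the Scx- values were 4.58 for Thbs2, 3.58 for Thbs1, 1.89 for Thbs4 and 1.46 for Thbs3, and 3 of the 4 genes lay above every control library, as 30.8% of all genes did, Thbs4 being the exception. At day 14 they were 3.47 for Thbs2, 2.83 for Thbs1, 1.48 for Thbs4 and 1.48 for Thbs3, and Thbs2 alone lay above every control library, as 20.7% of all genes did. Comp in Scx- mice was at -0.86 ± 0.67 (interval -2.28 to 0.56) at day 7 and at -0.12 ± 0.67 (interval -1.54 to 1.30) at day 14. The Thbs4 call at Scx- day 14 (adjusted p = 0.0111, limma) was lost without control replicate 2 (1.29, adjusted p = 0.0542) or control replicate 3 (1.02, adjusted p = 0.0867), and with only the 2 groups in the fit (1.48, adjusted p = 0.0780). These 4 comparisons share the same 3 control libraries.

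**Figure D2:**
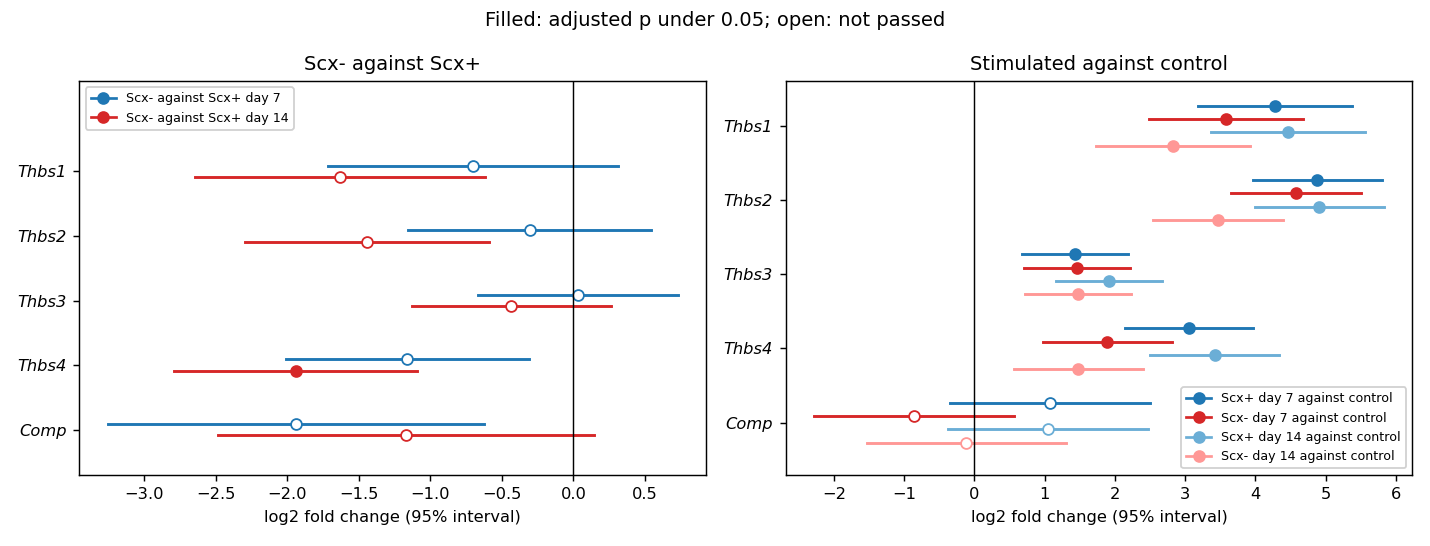
Log2 fold change with its 95% interval for each of the 5 genes, Scx- against Scx+ at day 7 and day 14 (left) and each stimulated group against control (right), filled where the adjusted p is under 0.05. On the right Thbs1, Thbs2, Thbs3 and Thbs4 are filled in all 4 comparisons and Comp in none, and on the left Thbs4 at day 14 is the single filled point, at -1.94.

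The genotype comparison asked how the family differed without scleraxis under the stimulus. At day 7 no member was called, against 0.77% of all genes (128 genes with limma, and 1207 at an unadjusted p under 0.05). Thbs1 and Thbs4, 2 of 5 members, did not overlap between genotypes, both lower in Scx-, where 4.18% of all genes did so. Thbs4 was at -1.16 ± 0.40 log2 units (interval -2.01 to -0.31, adjusted p = 0.353) and Thbs1 at -0.70 ± 0.48 (interval -1.72 to 0.31, adjusted p = 0.827). Comp had the largest difference of the 5 at -1.94 ± 0.62 (interval -3.25 to -0.62, adjusted p = 0.272), and without Scx- replicate 1, the library inside the Scx+ range, it was -2.49 (adjusted p = 0.0515). Thbs2 was at -0.31 (interval -1.16 to 0.54) and Thbs3 at 0.03 (interval -0.67 to 0.73).

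At day 14 all 5 values were negative and Thbs4 was called, 1 of 5 members, against 0.409% of all genes called lower. Thbs4 was lower in Scx-, at -1.94 ± 0.40 log2 units (SE, interval -2.79 to -1.09, adjusted p = 0.0378, limma). Thbs1 was at -1.63 ± 0.48 (interval -2.65 to -0.62, adjusted p = 0.172) and Thbs2 at -1.44 ± 0.40 (interval -2.30 to -0.59, adjusted p = 0.148). These 3 members did not overlap between genotypes, where 2.94% of all genes were lower without overlap. Comp was at -1.17 ± 0.62 (interval -2.48 to 0.15) and Thbs3 at -0.43 ± 0.33 (interval -1.13 to 0.26). On the deposited scale, which moved the median of all genes to -0.22 and the calls over all genes from 86 (20.9% of them higher) to 993 (3.73% higher), Thbs1 (-1.87, adjusted p = 0.0333) and Thbs2 (-1.68, adjusted p = 0.0263) were called as well.

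The Thbs4 call rested on the whole set of libraries. It was lost without any 1 of 7 of the 8 Scx+ and Scx- day 14 libraries, with adjusted p between 0.0656 and 0.169 (limma), and held only without Scx- replicate 3, its highest Scx- library. Over the 8 such fits the difference ran from -2.22 to -1.80. Without Scx- replicates 1 and 2, the muscle-rich pair, Thbs4 was at -1.73 ± 0.51 (adjusted p = 0.379), Thbs1 at -1.13, Thbs2 at -0.54, Comp at -0.25 and Thbs3 at 0.21, none of them called. With the muscle marker level as a covariate Thbs4 was at -1.76 ± 0.42 (adjusted p = 0.132), Thbs1 at -1.39 and Thbs2 at -1.13. The muscle markers, all 15 of them tested, were each positive in Scx- against Scx+ at both days with medians of 2.22 and 1.95, and none was called.

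**Figure D3:**
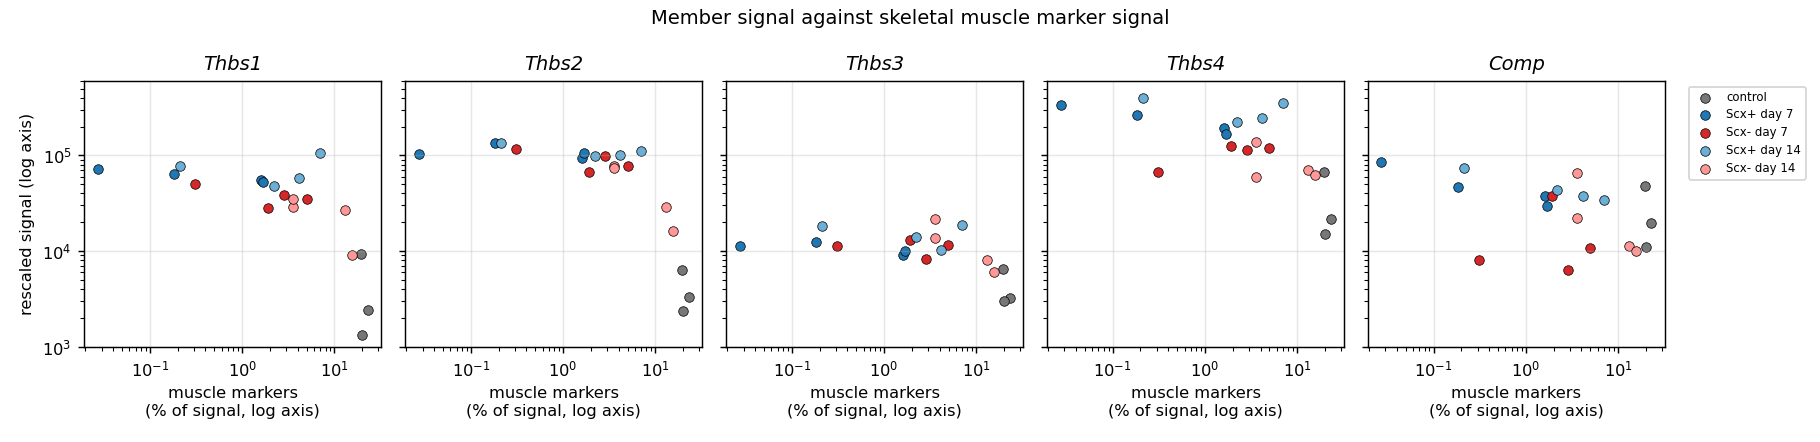
Rescaled signal of each of the 5 genes against the share of skeletal muscle marker signal in the same library, both axes log, 1 point per library coloured by group. The 3 controls and Scx- day 14 replicates 1 and 2 lie at 13.2% to 23.0% muscle signal, and they hold the 5 lowest Thbs1, Thbs2 and Thbs3 values but not the 5 lowest Thbs4 or Comp values.

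Whether the genotype difference itself changed between days was tested as an interaction. No member passed, against 0.0181% of all genes (3 genes, and 721 at an unadjusted p under 0.05). The day 14 difference less the day 7 difference was -1.14 ± 0.57 for Thbs2 (interval -2.34 to 0.07), -0.93 ± 0.68 for Thbs1, -0.78 ± 0.57 for Thbs4 (interval -1.98 to 0.42), -0.46 ± 0.47 for Thbs3 and 0.77 ± 0.88 for Comp (interval -1.09 to 2.63). The 3 intervals given reach beyond 1 log2 unit, so the days are not shown to be alike.

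Between day 7 and day 14 no member was called in Scx+ mice, against 0.0301% of all genes (5 genes, and 1758 at an unadjusted p under 0.05), and their differences lay between -0.03 for Comp and 0.48 for Thbs3. In Scx- mice none was called either, against 5.25% of all genes. Thbs2 was at -1.11 ± 0.40 (interval -1.96 to -0.26, adjusted p = 0.118, limma), Thbs1 at -0.75, Thbs4 at -0.41, Thbs3 at 0.02 and Comp at 0.75. The Thbs2 value passed without Scx- day 14 replicate 3 (-1.42, adjusted p = 0.0425) or replicate 4 (-1.40, adjusted p = 0.0413), and on the deposited scale (-1.37, adjusted p = 0.0302).

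By group mean, Thbs1, Thbs2 and Thbs4 shared the order Scx+ day 14, Scx+ day 7, Scx- day 7, Scx- day 14 and control. Among neighbours in this order, only Scx- day 14 and control differed by the test. Groups further apart differed for Thbs4, which was lower in Scx- day 14 than in Scx+ day 7 (-1.57, adjusted p = 0.0217, limma) and in Scx- day 7 than in Scx+ day 14 (-1.53, adjusted p = 0.0434), and for Thbs2 in the first of these pairs (-1.42, adjusted p = 0.0327). Those pairs differ in both day and genotype, and 5.84% and 0.945% of all genes were called lower in them. Thbs3 ran from Scx+ day 14 down through Scx- day 14, Scx- day 7 and Scx+ day 7 to control, where only Scx+ day 7 and control differed among neighbours. Comp ran from Scx+ day 7 through Scx+ day 14, Scx- day 14 and control to Scx- day 7, with no neighbours that differed by the test, and on the log2 scale control lay above Scx- day 14. With library totals, and on the deposited scale, Thbs2 had Scx+ day 7 ahead of Scx+ day 14, and the deposited scale also moved Scx- day 14 down in the Thbs3 and Comp orders.

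Per kilobase of exon, Thbs4 was the highest member in every library but control replicate 2, at 10.5 ± 8.67 kU per kilobase in controls and 93.2 ± 26.2 in Scx+ day 14 (mean ± SD). The make-up of the family, each member's share of the summed signal per kilobase, differed between control and stimulated tendon. In controls Thbs4 held 47.7 ± 3.36% and Comp 41.6 ± 3.37%, and Thbs1, Thbs2 and Thbs3 together held the small rest. In control replicate 2 Comp was the larger of the pair, at 45.5% against 44.2% for Thbs4. The Comp share was 13.8 ± 2.90% in Scx+ day 7 and 11.5 ± 2.93% in Scx+ day 14, and the 3 control shares, 39.5% to 45.5%, lay above all 16 stimulated shares. Thbs2 held 3.0 ± 0.69% in controls and 13.9 ± 3.41% in Scx+ day 7. A share can move through any member, so it shows unequal change and not the change of 1 gene.

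Between genotypes the share that separated the libraries was that of Thbs3. It was 1.45% to 2.42% in Scx+ and 2.91% to 4.68% in Scx- at day 7, and 1.89% to 2.69% and 4.61% to 6.35% at day 14. The Thbs4 share overlapped between genotypes, from 58.5% to 63.8% in Scx+ and from 40.5% to 61.3% in Scx- at day 7, and from 63.2% to 69.1% and from 40.3% to 69.4% at day 14. These shares are descriptions, given without a test.

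**Figure D4:**
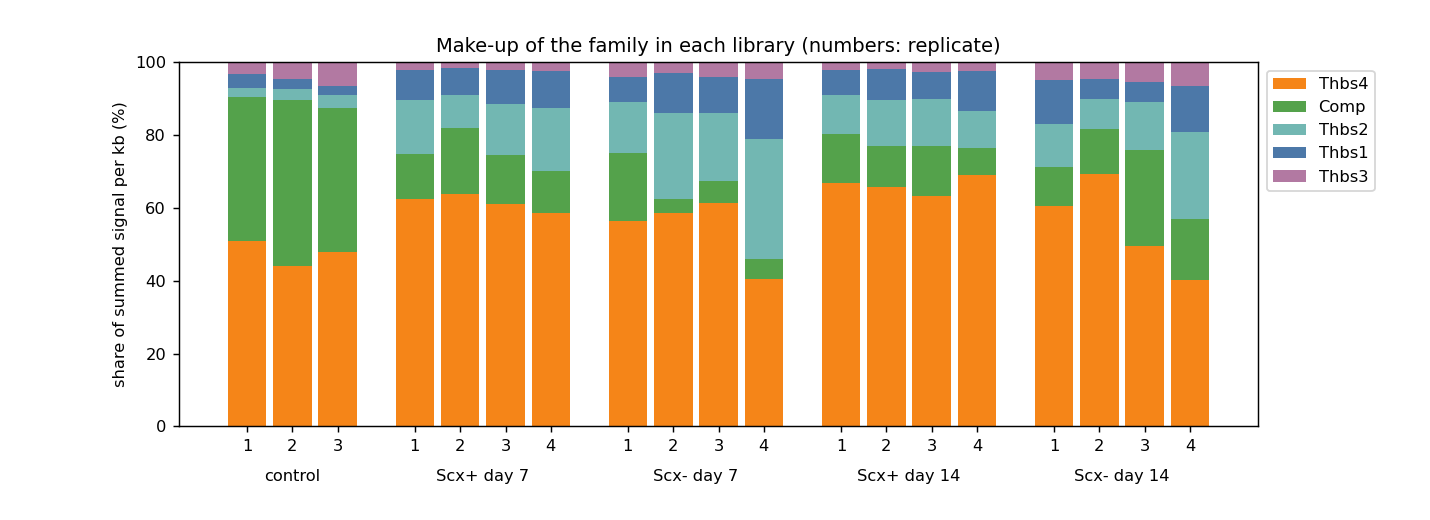
Share of each of the 5 genes in their summed signal per kilobase of exon, 1 stacked bar per library adding to 100%, grouped by condition and numbered by replicate. Comp takes 39.5% to 45.5% of the bar in the 3 controls and a smaller part in all 16 stimulated libraries, and Thbs4 is the largest part of every bar except that of control replicate 2, where Comp is.

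Across the 19 libraries Thbs1 and Thbs2 ran together, with a Pearson r of 0.96 on the log2 scale, and at 0.88 over the 16 stimulated libraries. Comp had its highest r with Thbs4, at 0.62 over the 19 libraries and 0.76 over the 16, and its values with the trimer genes were lower, at 0.38 (0.50 over the 16) with Thbs1 and 0.30 (0.45) with Thbs2. Around the group means Comp was closest to Thbs3, at 0.79, then to Thbs4 at 0.73, Thbs2 at 0.52 and Thbs1 at 0.43. These correlations are descriptions over libraries that share groups and muscle content.

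The genes whose log2 levels were most like each member over the 19 libraries, among 11219 genes with a sufficient level, were as follows. For Thbs2 the most alike was Col5a2, a fibrillar collagen chain, at r = 0.990 (0.94 over the 16 stimulated libraries), followed by Gpr153 and Rnf26. Thbs1 was most like Camk4, a calmodulin-dependent kinase, at 0.97 (0.86), then Fkbp10, a collagen chaperone, and Pck2. Thbs3 was most like Adamts2, a procollagen protease, at 0.96 (0.87), then Sh3d19 and Klhl11. Thbs4 was most like Plod1, a collagen lysyl hydroxylase, at 0.95 (0.92), then Inf2 and Srgap3. Comp was most like Fmod, the tendon proteoglycan fibromodulin, at 0.93 (0.94), then Uts2r and Ptgis. In Scx- against Scx+, Plod1 was lower at day 14 (-0.95 ± 0.15, adjusted p = 0.00674, limma). At day 7 Fmod (-2.70 ± 0.55, adjusted p = 0.0244, limma) and Uts2r (-3.64 ± 0.72, adjusted p = 0.0202) were lower. No other of these 15 genes was called at either day. Over all genes 0.337% were called lower at day 7 and 0.409% at day 14. The 15 genes were picked by likeness over the same libraries, genotypes included, so a shared genotype difference is partly built into the choice.

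The receptors of thrombospondins, 14 genes all tested, were called higher in 8 cases and lower in 3 in Scx+ day 7 against control, where 33.8% of all genes were called higher and 27.5% lower, with a median of 0.82 log2 units where the median of all genes was 0.18. Vldlr and Lrp8, lipoprotein receptors, went opposite ways, Vldlr at -4.94 ± 0.56 and Lrp8 at 2.07 ± 0.43. Cacna2d1, a calcium channel subunit, was at -3.18 ± 0.48, and Cd36, the scavenger receptor that binds thrombospondin-1, at -1.55 ± 0.52 (adjusted p = 0.0160, limma, the largest p of the 4). In Scx- day 7 against control 9 receptors were higher and 3 lower, where 32.3% of all genes were higher and 25.9% lower. Skeletal muscle markers took 19.5% to 23.0% of the signal in controls. They took 0.0272% to 1.69% in Scx+ day 7 and 0.309% to 4.99% in Scx- day 7. The part of muscle content in the values of this and the following gene lists was not tested.

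Matrix partners of COMP and the thrombospondins, 15 of 16 tested, were called higher in 13 cases and lower in 1 in Scx+ day 7 against control. Over all genes 33.8% were called higher and 27.5% lower. The median of the partners was 3.63, against 0.18 over all genes. The named members were Matn3, a matrilin listed at 0 in all 3 controls and at 349 to 554 units in Scx+ day 7, Col2a1, a cartilage collagen (6.28 ± 1.87), Acan, the cartilage proteoglycan aggrecan (5.94 ± 0.82), and Col9a3 (5.64 ± 0.91). The Col2a1 level was uneven, from 267 to 19328 units over the 4 Scx+ day 7 libraries. The partner called lower in Scx+ day 7 was Col9a1, at -3.45 ± 0.69 (adjusted p = 0.000355, limma). In Scx- day 7 against control 11 partners were called higher and 1 lower, again Col9a1 (-4.21 ± 0.69), with a median of 3.01. Over all genes 32.3% were called higher and 25.9% lower there, with a median of 0.14.

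Proteases and growth factors tied to thrombospondins, 14 of 15 tested, were called higher in 10 cases and lower in 1 in Scx+ day 7 against control. Over all genes 33.8% were called higher and 27.5% lower. The median of this list was 2.09, against 0.18 over all genes. Mmp9 and Mmp14, matrix metalloproteinases, were higher by 8.12 ± 0.97 and 5.05 ± 0.32, Adamts4, an aggrecanase, by 5.80 ± 0.52, and Mmp2 by 2.92 ± 0.35 (adjusted p at most 4.72e-06, limma).

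None of the tested genes of these 3 lists was called between genotypes at day 7 or day 14. Closest to the threshold were Mmp9 at day 7 (-3.98 ± 0.90, adjusted p = 0.0524, limma) and Col12a1 at day 14 (-1.67 ± 0.38, adjusted p = 0.0594). The medians at day 7 were -0.07 for receptors, -0.65 for partners and -0.23 for the proteases and growth factors, where the median of all genes was 0.02. At day 14 they were -0.02, -0.33 and -0.40, again with 0.02 over all genes. The highest-expressed members gave these day 14 values: Itgb1 -0.33 ± 0.15 and Lrp1 -0.48 ± 0.25 among receptors, Col1a1 -1.08 ± 0.41 and Col1a2 -1.01 ± 0.42 among partners, and Mmp2 -0.31 ± 0.33 and Mmp14 -0.54 ± 0.30 among proteases. In Scx- mice Itga4 was lower at day 14 than at day 7 (-1.22), as were Cd47 (-0.58) and Grn (-1.21), with adjusted p at most 0.0434 (limma). Over all genes 3.86% were called lower in that comparison, and Thbs2 (-1.11) was not called.

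Among other cells that make thrombospondins, platelet and macrophage marker shares were higher in day 7 than in control libraries. Endothelial marker shares overlapped, at 0.0262% to 0.0744% in controls and 0.0394% to 0.0708% in Scx+ day 7. Pericyte and smooth muscle shares were 0.0418% to 0.0683% in controls and 0.133% to 0.178% in Scx+ day 7. Platelets store thrombospondin-1, and of 8 platelet and megakaryocyte markers 6 were called higher and 1 lower in Scx+ day 7 against control. Over all genes 33.8% were called higher and 27.5% lower there. The summed share of the platelet and megakaryocyte markers was 0.00334% to 0.00584% of the signal in controls. It was 0.0119% to 0.0143% in Scx+ day 7 and 0.0104% to 0.0215% in Scx- day 7. At day 14 it was 0.00499% to 0.0122% in Scx+ and 0.00845% to 0.0169% in Scx-. Macrophage markers were called higher than control in 10 of 10 cases in both genotypes at day 7. Over all genes 33.8% were called higher in Scx+ and 32.3% in Scx-. Macrophage shares were 0.0377% to 0.0898% in controls, 0.256% to 0.396% in Scx+ and 0.338% to 0.797% in Scx-. At day 14 those shares were 0.176% to 0.298% in Scx+ and 0.101% to 0.277% in Scx-. In Scx- mice all macrophage markers but Cd14 and Lyz2 were called lower at day 14 than at day 7. Their values ran from -1.42 for Adgre1 to -1.16 for C1qa, where 3.86% of all genes were called lower. No marker of the platelet or macrophage list was called between genotypes at either day. The part of these markers in the Thbs1 and Thbs2 values was not tested.

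The content of tendon and cartilage markers also differed between libraries. The tendon list of 7, which includes Scx and Fmod, was called lower in 4 cases at day 7 and 2 at day 14 in Scx- against Scx+, where 0.337% and 0.409% of all genes were called lower, with all 7 values negative at both days and medians of -2.97 and -2.28. Its summed share was 0.190% to 0.360% in Scx+ and 0.0237% to 0.104% in Scx- at day 7, and 0.249% to 0.546% and 0.0348% to 0.190% at day 14. The highest shares of the 2 Scx- groups were those of day 7 replicate 1 and day 14 replicate 3. Those libraries were also the highest of their groups for Comp, Thbs3 and Thbs4. Thbs1 and Thbs2 were at the lowest of their group in Scx- day 7 replicate 1. In Scx- day 14 replicate 3 Thbs2 was the highest of its group, at 77.5 kU. Thbs1 lay there at 28.5 kU, below replicate 4 at 34.8 kU. The tendon share averaged 0.134% in controls, where Thbs4 averaged 34.5 kU. At day 7 it averaged 0.273% in Scx+ and 0.0521% in Scx-, with Thbs4 at 239.6 and 106 kU. At day 14 the averages were 0.374% and 0.0878%, with Thbs4 at 307 and 82.4 kU. Of the cartilage list 7 of 8 were tested and none was called between genotypes. Its summed share was 0.00535% to 0.00817% in controls, 0.0348% to 0.140% in Scx+ day 7, 0.00499% to 0.0495% in Scx- day 7, 0.0142% to 0.0449% in Scx+ day 14 and 0.00379% to 0.0466% in Scx- day 14. The highest cartilage share of Scx- day 14 was that of replicate 1, where Comp read 11.4 kU, the third highest of its 4 values. Snorc, a cartilage gene, was listed at 0 in every control and every Scx+ day 14 library. The part of these cells in the member results was not tested.

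The authors' deposited table called 2 of the 5 genes lower in Scx- at each day, Thbs1 and Thbs4. In the authors' deposited table Thbs4 was at -1.19 ± 0.28 (SE, adjusted p = 0.00106) at day 7 and at -1.86 ± 0.35 (adjusted p = 4.42e-05) at day 14. Thbs1 in the authors' deposited table was at -0.69 ± 0.20 (adjusted p = 0.0186) and -1.55 ± 0.42 (adjusted p = 0.0248), and Comp at -1.73 ± 0.77 (adjusted p = 0.215) and -0.82 ± 0.56 (adjusted p = 0.556). That authors' deposited table held 15951 genes, of which 4.73% passed at day 7 and 1.11% at day 14, higher and lower calls together. For Thbs4 in Scx- day 14 against control the authors' deposited table gave 1.29 ± 0.54 (adjusted p = 0.0531), on the other side of the threshold from the limma value.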

How the data were processed

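Total RNA of mouse plantaris tendon was measured in 19 libraries. The deposited table gives a scaled signal per gene that the authors derived from reads, and its sums were 36.6 to 79.8 MU per library (1 MU is 1000 kU). Per the submitters' processing notes FastQC, STAR, DESeq2 and mm10 were used, with versions and roles not given in the sources used here. The second deposited table holds the authors' log2 fold changes, standard errors and adjusted p-values, and only values named as theirs come from it. Between 16.4% and 67.6% of low values lay within 0.1 of a whole multiple of the library's commonest low value, so whole reads were not recovered, depth is unknown and no count model was used.

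The signal was divided by median-of-ratio factors (0.844 to 1.10 over 13703 genes above 0 in every library). Genes with at least 10 units in at least 3 libraries were kept. limma 3.58.1 in R 4.3.3 was fitted to log2(value + 2) over all 5 groups at once, with a mean-variance trend and robust moderation, which was tested on simulated data. A fold change on this scale understates that of low genes. Adjusted p-values cover all 16619 genes. Replicate numbers are shared between groups but do not pair libraries by any label. Exon lengths came from GENCODE M21. The genes named beside the 5 members were set by rule: per member the 3 genes most alike over the 19 libraries whose average share of the signal reached 5 ppm, and per list up to 4 called genes with the largest change, or the 2 with the highest level where none was called. Col9a1 in Scx+ day 7 against control, Mmp9 and Col12a1 between genotypes, and a few cell markers were named outside this rule. Ccn2 was matched as Ctgf, and Ccn1 and Ahsp were not matched. One list gene is not reported here by name. The members and lists were chosen with earlier results of these data known. Alternatives covered scaling, pseudocount, filter, variance moderation, library weights, muscle content, a replicate block, the groups in the fit and each library left out in turn.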

Additional observations from a re-analysis of the deposited data

Results flagged for a closer look

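For Thbs4 in Scx- day 14, replicate 3 stood far from the other libraries of its group at 137036 units, against 59.2 to 71.0 kU in the other 3. For Comp in Scx- day 7, replicate 1 did so at 37662 units, against 6.38 to 10.6 kU in the other 3. In each case the gap to the nearest library, as a part of the group's range, was above Dixon's critical value for 4 libraries (the parts were 0.848 and 0.864). Of 24 groups of 4 libraries checked this way 2 stood out, and chance gives about 1 in 20.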

How the results depend on the processing

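Of 940 alternative values for the 45 member results, 884 kept their direction and side of the threshold, 17 lost a call, 9 gained one and 30 changed sign, none of these last from a called value. For Scx- against Scx+ at day 14 the count of called members was 1, and it was 0 with the muscle covariate, with only the groups of the contrast, with sample quality weights, without robust moderation and without the pair Scx- day 14 replicates 1 and 2 (chosen after seeing the data), 3 on the deposited scale, and 0 to 2 with single libraries left out. For Scx- day 14 against day 7 the count of 0 became 1 on the deposited scale and ran from 0 to 1 with single libraries left out. A pairing of libraries by replicate number was not seen: of 24 same-number pairs 7 had a correlation over 0.1 (range -0.43 to 0.35) and 4 matched best with their own number. Such correlations cannot exclude a pairing. The fit with a replicate block gave 0 called members at day 14 (Thbs4 -1.94, adjusted p = 0.0503, limma) and moved Comp in Scx- day 14 against control from -0.12 to 0.0035. That Comp value also turned to 0.80 without the pair, 0.36 with library totals and 0.31 with sample weights, and ran from -0.69 to 0.44 with single libraries left out. Other signs that turned were those of uncalled values. With the muscle covariate Comp was at -0.29 in Scx+ day 7 against control and 0.61 in Scx+ day 14 against day 7 (0.27 with sample weights), and Thbs2 was at 0.041 between genotypes at day 7. On the deposited scale, then with library totals, Thbs2 was at -0.083 and -0.041 in Scx+ day 14 against day 7, and Thbs3 at -0.24 and -0.20 in Scx- day 14 against day 7 (-0.015 with TMM scaling). Thbs3 between genotypes was at -0.059 at day 7 on the deposited scale and, without the pair, at 0.21 at day 14 and 0.18 for the interaction. With single libraries left out Comp ran from -0.25 to 0.27, Thbs1 from -0.021 to 0.36 and Thbs2 from -0.073 to 0.13 in Scx+ day 14 against day 7, and Thbs3 from -0.058 to 0.17 between genotypes at day 7 and from -0.31 to 0.30 in Scx- day 14 against day 7. Comp in Scx- day 7 against control passed with the muscle covariate (-1.68, adjusted p = 0.0483, limma), and Thbs2 between genotypes at day 14 passed without Scx- day 14 replicate 3 (-1.76, adjusted p = 0.0470).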
